A study of Gallus gallus with 4 samples.

Results

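PAX5, EBF1, BCL11A, TCF4 and MEF2C are transcription factors known for their part in the B-lineage. They were taken by their symbols as 5 of the 15271 genes measured in single blood leukocytes of the chicken, and all 5 had a row in the data. The study sequenced droplet-based single-cell RNA libraries from clinically healthy laying hens of 24 weeks, with no treatment and 1 condition. The labels give the hens as Bovans Robust hybrids, whereas the study's methods name the strain as Dekalb White. Leukocytes were separated from red blood cells on a Ficoll gradient and depleted of thrombocytes with an antibody to CD41/61, so the red blood cells and thrombocytes described here are those that remained. The labels name 4 hens, but libraries 3 and 4 shared 4890 cell barcodes and nearly all values, against 1 to 9 barcodes for any other pair. Library 4 was therefore left out, and every mean, SD and test below rests on n = 3 libraries, 1 per hen.

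In mice and humans, EBF1 and PAX5 act in sequence to commit lymphoid progenitors to the B-lineage. EBF1 opens chromatin at B-cell genes and switches on PAX5, and PAX5 activates genes of the B-cell receptor while it represses genes of other lineages. BCL11A is a zinc finger repressor needed for B-cell development in mice and known in humans for the silencing of fetal globin. TCF4, also called E2-2, is a basic helix-loop-helix E protein that binds E-box sites together with TCF3 and TCF12 and is known in mammals as a regulator of plasmacytoid dendritic cells. MEF2C is a MADS-box factor that acts downstream of calcium and kinase signals, in mouse B-cells among other cells, and in the megakaryocyte lineage.

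On the GRCg7b assembly the RefSeq gene table places PAX5 (gene ID 387330) at chrZ:85810944-85926014, TCF4 (768612) at chrZ:273466-469138 and MEF2C (769007) at chrZ:61121809-61259046. EBF1 (395512) lies at chr13:10287788-10551209 and BCL11A (421199) at chr3:1932585-1991479. All 5 are annotated as protein coding. PAX5 overlaps no other annotated gene, whereas EBF1 overlaps LOC101749832, TCF4 overlaps LOC121108246, MEF2C overlaps LOC101752071 and BCL11A overlaps LOC121110237 and LOC107052840. How the counting treated reads within these overlaps is not given in the sources used here, so part of the score of these 4 genes may belong to a neighbour. The genes differ in length and in how well their ends are annotated, so levels are compared below between cells and not between genes.

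The value of a gene in a cell is a whole-number score, read as a count of unique molecular identifiers (UMIs) that the authors had corrected for depth. Libraries 1 to 3 held 4452, 2697 and 4893 cells, in all 12042, and the total of a cell lay between 1577 and 3004. A level is the sum of a gene's scores over a group of cells in 1 library, scaled to 10000. Cells were grouped by marker genes that include none of the 5 factors, and the names of the groups stand for these rules, since no protein was measured in these cells. Cells with a sum of at least 2 for CD79B and LOC121108878, which encode the paired signalling chains of the B-cell receptor, were taken as B-cells (2038 cells, 814, 519 and 705 in libraries 1 to 3). They were split at a score of 8 for SOX5 into 138 SOX5-high B-cells (35, 37 and 66) and 1900 SOX5-low B-cells (779, 482 and 639). The remaining cells gave 1811 TCRγ/δ T-cells, 3452 other T-cells, 522 cytolytic cells, 1519 monocytes, 371 thrombocytes, 237 eosinophils, 59 basophils, 93 red blood cells and 59 cycling cells, while 1881 cells met no rule. The defining T-cell markers CD3D, CD3E and CD247 summed to 1.99 to 3.32 per 10000 in SOX5-low B-cells, against 29.3 to 32.5 in the T-cell groups, and the 4 monocyte markers to 0.219 to 0.568, against 31.5 to 50.2 in monocytes. The basophil group held T-cell markers at a sum of 42.8 to 45.3 per 10000, above that in T-cells. Nearly all of this sum came from CD3D and CD3E. CD247 was at 0.508 ± 0.670 in the basophil group, against 21.4 ± 1.37 in T-cells. The group is described here by its rule, a sum of at least 8 for CTSG, HDC and GATA2.

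PAX5 and EBF1, the factors of B-lineage commitment, were high in both B-cell groups and low in every other group set by markers. The level of PAX5 was 22.6, 21.9 and 20.6 per 10000 in SOX5-low B-cells of libraries 1 to 3 and 19.3, 20.5 and 17.0 in SOX5-high B-cells. EBF1 was at 51.0, 49.4 and 45.8 per 10000 in SOX5-low B-cells and at 49.1, 42.9 and 42.8 in SOX5-high B-cells. The cells that met no rule, which include 344 with a summed score of at least 8 for PAX5 and EBF1, were at 4.80 ± 0.384 for PAX5 and 12.1 ± 0.411 for EBF1, and PAX5 was detected in 18.4% and EBF1 in 19.9% of them. All groups set by markers of other lineages lay below. Among these, the highest mean of PAX5 was 0.637 ± 0.289 (SD) per 10000 in red blood cells, where 3 of 93 cells had a score of at least 1, and the highest of EBF1 was 1.31 ± 1.69, in the same group. From there down to monocytes, each neighbour in the order of either gene differed from the next by less than the sum of their SDs. The levels came down to 0.0111 ± 0.00273 for PAX5 and 0.0325 ± 0.0324 for EBF1 in monocytes. No basophil had a score for PAX5 (0 of 59 cells). By counting error alone this allows up to 5.08% of cells with a score, which is no limit on cells that express the gene. In T-cells the levels were uneven between libraries. EBF1 reached 0.358 per 10000 in other T-cells of library 3, against 0.0711 and 0.0236 in libraries 1 and 2, and 8 of the 5263 T-cells had a summed score of at least 8 for PAX5 and EBF1.

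The other 3 factors were also highest in B-cells, but each was present in a further lineage. BCL11A was at 18.6, 22.4 and 18.3 per 10000 in SOX5-low B-cells and at 6.64, 6.08 and 5.60 in SOX5-high B-cells. Its next level was that of the basophil group, at 2.95, 1.53 and 1.41, and no other group set by markers had a mean above 0.558. In the cells that met no rule BCL11A was at 3.47 ± 0.676, TCF4 at 1.87 ± 0.406 and MEF2C at 4.01 ± 0.436, and these cells are left out of the orders given here. TCF4 was at 6.25, 5.87 and 5.20 per 10000 in SOX5-low B-cells and at 5.27, 3.30 and 2.45 in SOX5-high B-cells. It was followed by the basophil group at 2.41 ± 0.785, TCRγ/δ T-cells at 1.58 ± 0.170, cytolytic cells at 1.33 ± 0.311, thrombocytes at 1.10 ± 0.150, cycling cells at 0.845 ± 0.755 and monocytes at 0.662 ± 0.273, and was lowest in other T-cells at 0.227 ± 0.0806. From SOX5-high B-cells down to monocytes, each neighbour in the order of TCF4 differed from the next by less than the sum of their SDs. MEF2C was at 15.3, 17.3 and 15.5 per 10000 in SOX5-low B-cells, and at 13.3, 10.6 and 8.04 in SOX5-high B-cells. Thrombocytes reached 11.8, 10.5 and 9.87 for MEF2C, so thrombocytes and SOX5-high B-cells could not be ordered. Monocytes followed for MEF2C at 1.13, 1.02 and 1.75.

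**Figure D1:**
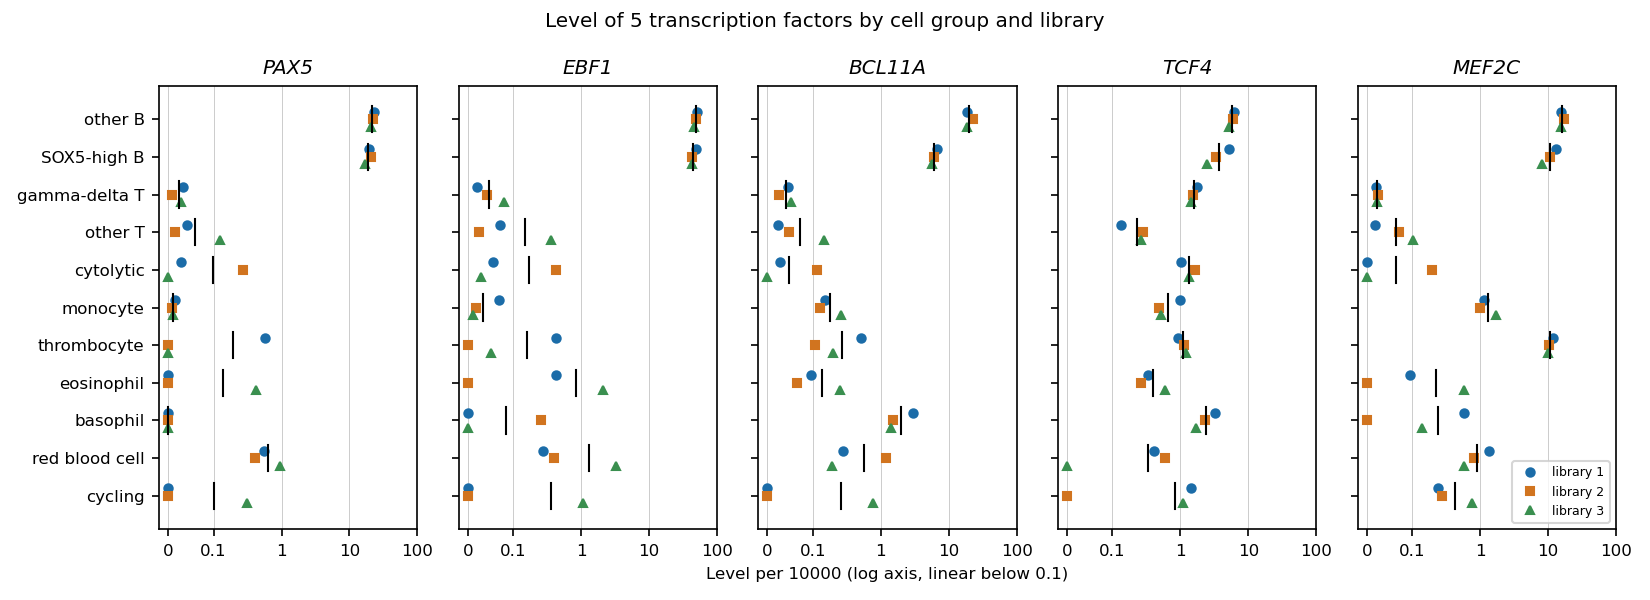
Level per 10000 of each factor in 11 groups of cells, on a log axis that is linear below 0.1. Points are the 3 libraries and the black line is their mean; "other B" stands for SOX5-low B-cells, and cells that met no rule are not drawn. PAX5 and EBF1 stand apart in both B-cell groups, MEF2C is as high in thrombocytes as in SOX5-high B-cells, and TCF4 is spread over several groups.

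The first comparison asked how far the 5 factors set B-cells apart from T-cells (both T-cell groups summed). Log2 of the level plus 0.1 was compared with limma over the 9799 genes whose mean level reached 0.05 per 10000 in B-cells or in T-cells, and a gene was called where its p, adjusted over all of them by Benjamini and Hochberg's method, was below 0.05. All 5 factors were called higher in B-cells, where 16.5% of the genes tested were called higher and 34.5% in either direction. EBF1 was at 48.5 ± 2.74 per 10000 in B-cells and at 0.118 ± 0.127 in T-cells, a log2 difference of 7.95 (SE 0.28, adjusted p = 8.90e-10). PAX5 was at 21.5 ± 1.14 against 0.0474 ± 0.0398 (7.23, SE 0.17, adjusted p = 4.32e-11). BCL11A was at 18.8 ± 2.13 against 0.0602 ± 0.0468 (6.91, SE 0.18, adjusted p = 7.76e-11) and MEF2C at 15.6 ± 1.04 against 0.0480 ± 0.0290 (6.74, SE 0.15, adjusted p = 2.51e-11). TCF4 differed least, with 5.60 ± 0.640 in B-cells and 0.719 ± 0.157 in T-cells (2.81, SE 0.15, adjusted p = 2.57e-08). Each factor was higher in B-cells in 3 of 3 libraries. The size of these differences rests on the value added before the logarithm, since the T-cell levels are near 0: with 1 or 0.01 added, that of PAX5 was 4.42 or 8.81. Without library 3 the number of genes called fell from 3383 to 2124, and all 5 factors remained among them.

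Against monocytes, all 5 factors were again called higher in B-cells, where 40.1% of the 10303 genes tested were called higher and 62.6% in either direction. This comparison shares its B-cell profiles with the one before. EBF1 (8.54 on the log2 scale, SE 0.20, adjusted p = 1.07e-11), PAX5 (7.60, SE 0.16, adjusted p = 1.03e-11) and BCL11A (6.09, SE 0.20, adjusted p = 1.07e-10) differed most. In monocytes the summed scores of libraries 1 to 3 were only 1, 1 and 2 for PAX5 and 5, 2 and 2 for EBF1. Over the alternative settings described below, the difference ran from 4.47 to 10.0 for PAX5 and from 5.58 to 10.4 for EBF1. The sizes of PAX5 and EBF1 could therefore not be ordered. MEF2C, at 1.30 ± 0.393 per 10000 in monocytes, was higher in B-cells by 3.52 (SE 0.20, adjusted p = 1.09e-08), and TCF4, at 0.662 ± 0.273 in monocytes, by 2.95 (SE 0.23, adjusted p = 1.77e-07). The median of all genes lay 0.27 above 0 here. Of the genes called, 64.0% were higher in B-cells as scaled to 10000 and 48.1% after the profiles were centred at their median, and the 5 factors were called higher in both.

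Relatives of the 5 factors divided the lineages differently. The list of other regulators held 43 genes, of which 38 had a row and 34 could be tested between B-cells and T-cells, and it was drawn up with earlier results of these data known. There, 9 regulators were higher in B-cells, 12 were lower and 13 did not pass, with a median log2 difference of 0.02, against -0.01 over all genes, of which 16.5% were called higher and 18.0% lower. BCL11B, the T-cell relative of BCL11A, was at 1.53 ± 0.536 per 10000 in B-cells and 33.9 ± 4.34 in T-cells (-4.44 on the log2 scale, SE 0.21, adjusted p = 1.05e-08). The other E proteins did not follow TCF4 past the threshold: TCF3 was at 1.05 ± 0.164 against 0.836 ± 0.0551 (adjusted p = 0.122) and TCF12 at 5.13 ± 0.164 against 4.60 ± 0.289 (adjusted p = 0.309). Of the MEF2 family, MEF2D was higher in B-cells by 1.26 (SE 0.11, adjusted p = 1.64e-06), at 3.35 ± 0.157 against 1.34 ± 0.0220, while MEF2A was at 3.88 ± 0.165 against 3.76 ± 0.229 (adjusted p = 0.783). MEF2B passed at 0.0759 ± 0.0557 against 0.00260 ± 0.00302 (adjusted p = 0.0159), a call lost without library 2 or 3. EBF3, a relative of EBF1, was at 0.0950 ± 0.0673 against 0.0640 ± 0.0152 and did not pass (adjusted p = 0.494).

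Among the other listed regulators, SPI1, which encodes the ETS factor PU.1, was higher in B-cells than in T-cells by 4.44 (SE 0.12, adjusted p = 9.68e-11), at 2.70 ± 0.0762 against 0.0287 ± 0.000726 per 10000. POU2AF1, a coactivator of octamer-binding factors, was higher by 2.87 (SE 0.14, adjusted p = 1.15e-08). BHLHE41, a helix-loop-helix repressor, was higher by 3.96 (SE 0.17, adjusted p = 3.93e-09). The T-cell factors TCF7 (-4.35), GATA3 (-4.06) and LEF1 (-3.76) were lower in B-cells, with adjusted p-values of 8.91e-08, 2.61e-07 and 6.78e-09. FOXO1, a forkhead factor of both lymphoid lineages, was at 12.2 ± 1.19 in B-cells and 18.7 ± 1.49 in T-cells (-0.62, SE 0.12, adjusted p = 0.00138). ETS1 (-0.79), RUNX1 (-0.83) and IKZF1 (-0.46) were also lower in B-cells, with adjusted p-values of 0.00254, 1.99e-04 and 0.00525. IRF4 did not pass (0.58, adjusted p = 0.0748). SPI1 was not particular to B-cells, since it was at 6.50 ± 1.37 per 10000 in monocytes. Leaving out a library kept 18 to 20 of these 21 calls, and all 21 kept their direction.

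Of 24 measured genes of the B-cell receptor and of known targets of PAX5 or EBF1, 23 could be tested against T-cells. Of these, 20 were higher in B-cells, with a median log2 difference of 4.02, against -0.01 over all genes. Among all genes tested, 16.5% were called higher and 18.0% lower. CD79B and LOC121108878 are among the 20 because they set the gate. LYN and SYK, kinases of the receptor, were higher by 5.80 (SE 0.18, adjusted p = 2.59e-10) and 4.50 (SE 0.16, adjusted p = 8.90e-10). Neither was particular to B-cells. LYN was at 23.3 ± 1.70 per 10000 in monocytes and 11.3 ± 0.667 in B-cells, and SYK at 4.61 ± 0.760 in thrombocytes and 2.47 ± 0.550 in B-cells. Against monocytes, 20 of 23 of these genes were called higher and 2 lower, LYN among the latter, where 40.1% and 22.5% of all genes were. LOC396098, the chicken B-cell antigen Bu-1, was higher by 5.86 (SE 0.14, adjusted p = 4.39e-11), and CIITA, the coactivator of MHC class II genes, by 4.56 (SE 0.16, adjusted p = 6.32e-10). BLK, a kinase known from mouse and human B-cells, went the other way, at 0.570 ± 0.105 per 10000 in B-cells and 1.74 ± 0.494 in T-cells (-1.44, SE 0.19, adjusted p = 6.04e-05). Within the T-cells, BLK was at 3.81 ± 0.191 in TCRγ/δ T-cells and at 0.512 ± 0.128 in other T-cells, the latter near the B-cell level.

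The share of cells with a score of at least 1 was read across sums of CD79B and LOC121108878, over cells of all groups. Sums of 0 and 1 lie outside the B-cell gate, so the rise up to 2 includes the change from other cells to B-cells. PAX5 was detected in 2.06 ± 0.273% of the 9087 cells with a sum of 0, in 22.5 ± 3.42% at a sum of 1, in 74.5 ± 5.33% at 2, in 90.4 ± 1.48% at 3 and in 96.4 ± 3.71% at 7 or more. EBF1 ran from 2.48 ± 0.153% at a sum of 0 to 98.9 ± 0.429% at 7 or more. BCL11A rose from 2.93 ± 0.493% to 95.1 ± 0.794% and MEF2C from 8.20 ± 2.83% to 92.8 ± 2.88% across the same range, and these shares are a description with no test. TCF4 was detected in 10.9 ± 0.908% of cells with a sum of 0 and in no more than 62.7 ± 3.61% of cells, at sums of 4 to 6. The level of PAX5 rose from 0.423 ± 0.0359 per 10000 at a sum of 0 over 5.44 ± 1.18 at 1 and 18.7 ± 2.61 at 2 to 21.8 ± 2.64 at 3, and was 21.9 ± 1.29 at 7 or more. Between 3 and 7 or more, EBF1 went from 52.5 ± 1.61 to 43.7 ± 5.43 and BCL11A from 18.3 ± 1.59 to 21.3 ± 2.31.

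**Figure D2:**
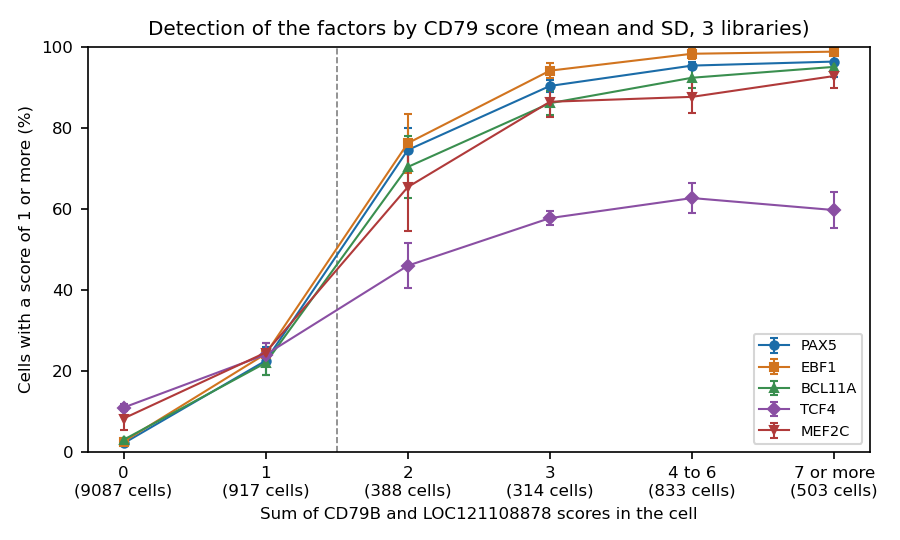
Share of cells in % with a score of at least 1 for each factor, by the summed score of CD79B and LOC121108878 in the cell. Points and bars are the mean and SD of 3 libraries, the number of cells stands under each bin, and the dashed line is the B-cell rule. Detection of PAX5 goes from 2.06% at a sum of 0 to 96.4% at 7 or more, and TCF4 stays below 62.7%.

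The gate for B-cells also held cells that met the rule of another lineage. Of its 2038 cells, 120 had neither PAX5 nor EBF1. Of these 120 cells, 94 had a CD79 sum of exactly 2 and 75 also met the T-cell rule, against 294 and 40 of the other 1918 cells. BCL11A was detected in 3.33% and MEF2C in 6.67% of the 120 cells, against 92.6% and 88.6% of the others. A plasmablast marker sum of at least 4 was found in 7 of the 120 cells and 45 of the others. The lineage of the 120 cells was not tested. On the other side of the gate, 344 of the 1881 cells that met no rule had a summed score of at least 8 for PAX5 and EBF1, and 198 of these had a CD79 sum of 1. The levels given for B-cells are therefore levels of the gated cells, and those for the T-cell groups come from few cells. The 1918 gated cells with PAX5 or EBF1 were taken out before the other groups were set. Low values of these genes in the other groups follow in part from this order. PAX5 was detected in 90.3% of SOX5-low B-cells, at a median total of 2435 per cell. In other T-cells, which should lack PAX5, it was detected in 0.869% of cells at a median total of 2510, and in monocytes in 0.263% at 2404.

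Within SOX5-low B-cells, all 5 factors were detected in 49.1 ± 5.07% of cells and 4 of them in 36.6 ± 1.52%. None was detected in 5.32 ± 1.39%. In SOX5-high B-cells all 5 were detected in 25.8 ± 5.08% and 4 in 46.5 ± 7.09%. Outside the B-cells, 64.5 ± 5.64% of monocytes and 41.5 ± 5.94% of thrombocytes had none of the 5, and no monocyte had more than 3. Of the other T-cells 94.2 ± 1.38% had none, and of TCRγ/δ T-cells 76.7 ± 0.377%. The scores of any pair of factors across the cells of SOX5-low B-cells were weakly correlated within a library, from r = 0.04 for TCF4 and MEF2C in library 3 to r = 0.30 for PAX5 and EBF1 in library 3. These 1900 cells share their depth correction, and such correlations of sparse scores are given as a description only.

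**Figure D3:**
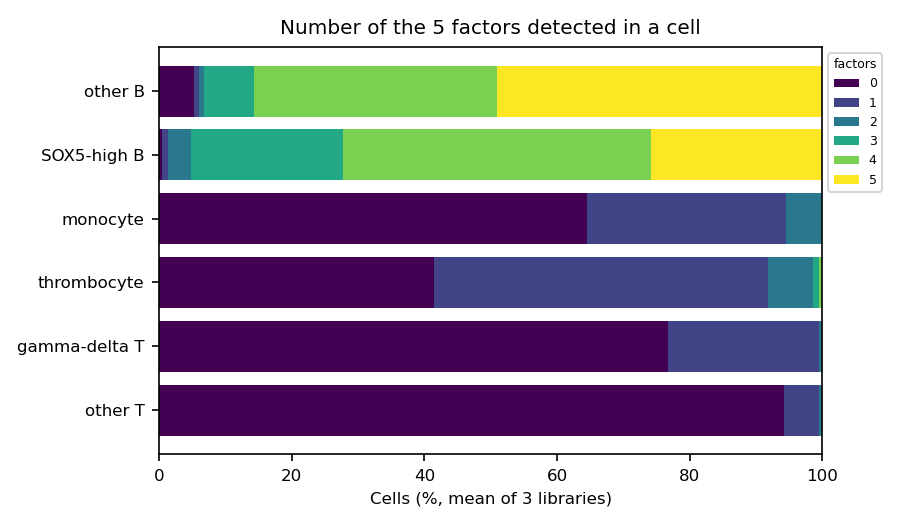
Share of cells in %, as the mean of 3 libraries, by how many of the 5 factors had a score of at least 1 in the cell. "Other B" stands for SOX5-low B-cells. All 5 were found in 49.1% of SOX5-low and 25.8% of SOX5-high B-cells, and none in 94.2% of other T-cells.

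SOX5-high B-cells were compared with SOX5-low B-cells to find which factors differed between the 2 kinds of B-cell. Of the 10100 genes tested, 5.26% were called lower in SOX5-high B-cells and 9.41% in either direction. BCL11A was lower there, and it was the 1 factor of the 5 that passed the test without the hen as a block. Its levels of 6.64, 6.08 and 5.60 per 10000 in SOX5-high B-cells lay below 18.6, 22.4 and 18.3 in SOX5-low B-cells without overlap, as did the levels of PAX5 and MEF2C. The libraries did not overlap in 29.3% of all genes and were lower in SOX5-high B-cells in 16.9%. The log2 difference was -1.68 (SE 0.15, adjusted p = 2.96e-04), or 0.313 times the level. BCL11A was detected in 67.4% of SOX5-high and in 88.8% of SOX5-low B-cells, at median totals of 2616.5 and 2435 per cell, against 1.04% of other T-cells at 2510. Without library 3 the difference was -1.67 and the adjusted p 0.0643, so the call was lost, while the number of genes called fell from 950 to 54. The call was kept without library 1 (adjusted p = 0.0149) and without library 2 (adjusted p = 0.0371).

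MEF2C and TCF4 were also lower in SOX5-high B-cells within each of the 3 libraries, but did not pass without the hen as a block. MEF2C was at 10.6 ± 2.62 per 10000 against 16.0 ± 1.08 (-0.61, SE 0.19, adjusted p = 0.0872). TCF4 was at 3.67 ± 1.45 against 5.78 ± 0.530 (-0.70, SE 0.26, adjusted p = 0.136), and its libraries overlapped. With the hen as a replicate block, MEF2C had an adjusted p of 0.0144 and TCF4 of 0.0129, and both were then called. PAX5, at 18.9 ± 1.81 against 21.7 ± 1.02, differed by -0.20 with a 95% interval of -0.51 to 0.12 (adjusted p = 0.453). EBF1, at 44.9 ± 3.62 against 48.8 ± 2.67, differed by -0.12 with an interval of -0.43 to 0.19 (adjusted p = 0.659). For PAX5 and EBF1 these intervals leave room for a decrease by 0.51 and 0.43 on the log2 scale. Their detection went the other way from their levels. PAX5 was detected in 95.7% of SOX5-high and 90.3% of SOX5-low B-cells, and EBF1 in 99.3% and 92.9%. None of the 5 factors was detected in 0.505 ± 0.875% of SOX5-high and 5.32 ± 1.39% of SOX5-low B-cells. Of the 120 gated cells with neither PAX5 nor EBF1, 75 also met the T-cell rule. The part of such cells in these shares and levels was not tested.

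Along the SOX5 score, BCL11A was at 19.8 ± 2.15 per 10000 in B-cells with a score of 0 and 20.7 ± 5.55 at 1 to 7. At 8 to 30 it was at 4.85 ± 0.564, and at 31 or more at 7.86 ± 2.25. Close to the split, the 22 B-cells with a SOX5 score of 4 to 7 had a pooled BCL11A level of 14.2 and the 13 with 8 to 11 one of 4.31, with no test. PAX5 at the same steps was at 20.6 and 23.1. A further 39 cells met no rule but had a SOX5 score of at least 8. PAX5 was at 25.9, 24.8 and 20.0 per 10000 in these cells, EBF1 at 52.4, 41.4 and 45.1, and BCL11A at 4.15, 5.09 and 4.83, so that they resembled SOX5-high B-cells in these factors although their CD79 sum was below 2.

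**Figure D4:**
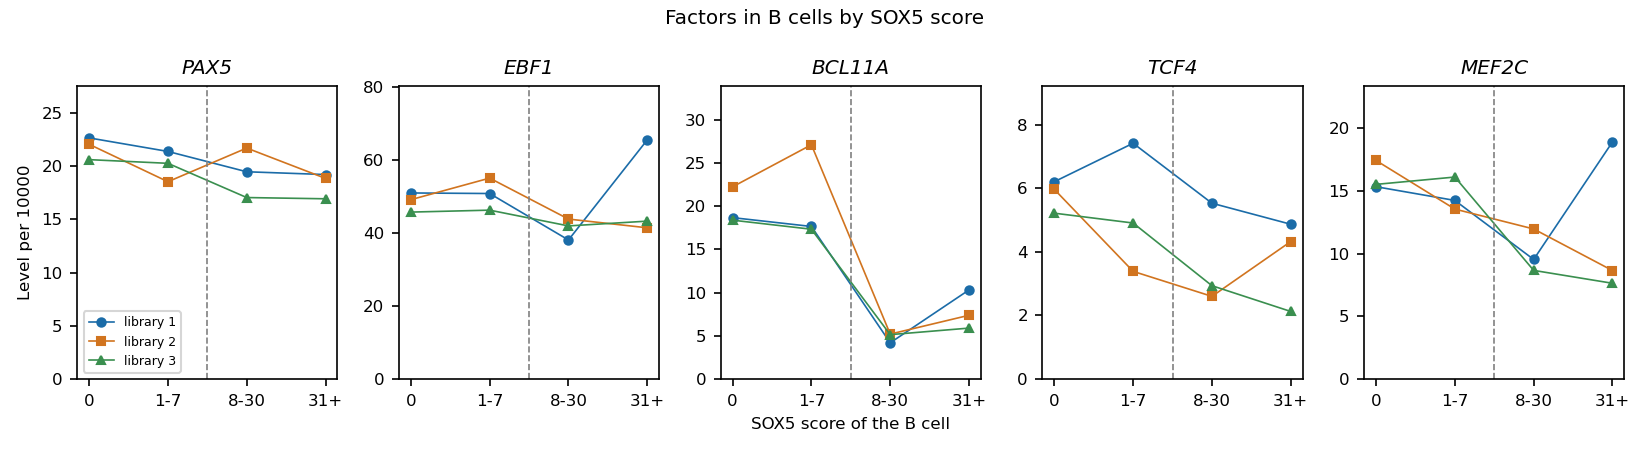
Level per 10000 of each factor in B-cells by the SOX5 score of the cell, with 1 line per library and axes from 0. The dashed line marks the split at 8. BCL11A lies at 17.3 to 27.1 below the split and at 4.20 to 10.3 above it in every library, whereas PAX5 lies at 16.9 to 22.6 throughout.

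Other regulators and targets differed between the 2 kinds of B-cell in both directions. Of 34 regulators tested, 8 were higher in SOX5-high B-cells, 4 were lower and 22 did not pass, with a median log2 difference of 0.20, against -0.06 over all genes, of which 4.15% were called higher and 5.26% lower. FOXO1 was lower by far, at 0.926 ± 0.124 per 10000 against 13.0 ± 0.975 (-3.68, SE 0.17, adjusted p = 7.83e-06). BHLHE40 and BHLHE41, related repressors, were higher by 3.33 (SE 0.39, adjusted p = 0.00124) and 1.22 (SE 0.19, adjusted p = 0.00527). Family members of the 5 factors were among the regulators that rose. TCF3, an E protein like TCF4, was at 2.09 ± 0.343 against 0.963 ± 0.121 (1.04, SE 0.21, adjusted p = 0.0142), and ID2, an inhibitor of E proteins, at 1.34 ± 0.259 against 0.369 ± 0.140 (1.65, SE 0.29, adjusted p = 0.00834). MEF2A was at 6.77 ± 1.76 against 3.67 ± 0.119 (0.83, SE 0.20, adjusted p = 0.0302), and MEF2B at 0.526 ± 0.298 against 0.0372 ± 0.0313 (2.09, SE 0.43, adjusted p = 0.0168).

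BCL11B was lower in SOX5-high B-cells by 2.52 on the log2 scale, at 0.226 ± 0.201 per 10000 against 1.63 ± 0.552 (SE 0.43, adjusted p = 0.00743). The T-cell markers moved with it, at 0 to 1.49 per 10000 in SOX5-high and 1.99 to 3.32 in SOX5-low B-cells. Without the cells that met more than 1 lineage rule, the BCL11B difference was -1.73 (adjusted p = 0.0123). Among the receptor genes and targets, 5 of 24 were higher and 3 lower, against the same 4.15% and 5.26% of all genes. PTPRJ, a receptor tyrosine phosphatase, was higher by 1.60 (SE 0.15, adjusted p = 3.49e-04) and LOC396098 by 1.16 (SE 0.16, adjusted p = 0.00257). TNFRSF13C, the receptor for the survival factor BAFF, was at 0.131 ± 0.0386 against 1.34 ± 0.295 (-2.63, SE 0.28, adjusted p = 6.64e-04). All of these genes kept their direction when a library was left out. Only 4, 3 and 1 of the 12 regulators, and 5, 4 and 0 of the 8 receptor genes and targets, remained past the threshold without library 1, 2 and 3, and FOXO1 was the regulator that remained each time.

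Outside the B-lineage, MEF2C and BCL11A were higher in monocytes than in T-cells, where 25.1% of the 10307 genes tested were called higher and 68.5% in either direction. This comparison shares the T-cell and monocyte profiles used above. MEF2C was at 1.13, 1.02 and 1.75 per 10000 in monocytes and at 0.0480 ± 0.0290 in T-cells (3.22, SE 0.22, adjusted p = 3.11e-07), and was detected in 24.8% of monocytes, against 0.782% of other T-cells. BCL11A was at 0.154, 0.128 and 0.262 in monocytes and at 0.0602 ± 0.0468 in T-cells (0.82, SE 0.23, adjusted p = 0.00788), detected in 3.95% of monocytes and 1.04% of other T-cells. EBF1 (-0.59, SE 0.32, adjusted p = 0.126) and TCF4 (-0.14, SE 0.24, adjusted p = 0.611) did not pass, and PAX5 was too low to be tested. Without library 1, both were called lower in monocytes, EBF1 at -0.95 (adjusted p = 0.0468) and TCF4 at -0.53 (adjusted p = 0.0498), and the direction of TCF4 turned without library 2 (0.17) and after centring (0.12). The median of all genes lay at -0.27, and 36.7% of the called genes were higher in monocytes as scaled and 51.0% after centring. Of the dendritic cell markers, FLT3, ZBTB46 and CADM1 had a row and XCR1 was not among the genes. They summed to 3.31 to 3.92 per 10000 in monocytes and to 0.580 to 0.843 in SOX5-low B-cells, and their part in the levels of TCF4 and BCL11A in monocytes was not tested.

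Thrombocytes had MEF2C. CD79B and LOC121108878 summed to 0 to 0.109 per 10000 in them, but the B-cell rule came before the others. It had taken out every cell with a sum of at least 2, so low values of these genes outside B-cells follow from the rules. The comparison of thrombocytes with T-cells and the 3 that follow, down to the basophil group, were added after the levels had been seen. They share T-cell profiles with each other and with those above. MEF2C was at 11.8, 10.5 and 9.87 per 10000 in thrombocytes and 6.21 higher on the log2 scale than in T-cells (SE 0.20, adjusted p = 2.77e-06), where 14.2% of the 10225 genes tested were called higher and 51.2% in either direction. It was detected in 51.5% of the 371 thrombocytes, at a median total of 1933 per cell, against 0.782% of other T-cells. Of the 191 thrombocytes with MEF2C, 1.05% had PAX5 or EBF1, and CD79B and LOC121108878 were at 0.0779 per 10000 in them. Both values were held low by the same order of rules. MEF2A was also higher in thrombocytes than in T-cells (1.31, adjusted p = 3.24e-04) and MEF2D was lower (-2.89, adjusted p = 4.39e-04). The median of all genes lay at -0.49, and 27.8% of the called genes were higher in thrombocytes as scaled and 52.8% after centring.

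TCF4 set TCRγ/δ T-cells and cytolytic cells apart from other T-cells. It was at 1.77, 1.55 and 1.43 per 10000 in TCRγ/δ T-cells, above 0.134, 0.283 and 0.263 in other T-cells (2.39, SE 0.18, adjusted p = 1.27e-06), where 7.87% of the 9433 genes tested were called higher and 14.6% in either direction. With the replicate block 2659 genes were called in place of 1374, TCF4 among them. TCF4 was detected in 21.1% of TCRγ/δ T-cells and in 3.04% of other T-cells, at median totals of 2539 and 2510. The B-cell genes CD79B and LOC121108878 summed to 0.344 to 0.514 in TCRγ/δ T-cells and to 0.367 to 0.401 in other T-cells. Both values were held low by the B-cell rule, which was applied before the T-cell rules. Of the related genes, TCF3 was higher in TCRγ/δ T-cells by 0.65 (adjusted p = 0.00516), and the E-protein inhibitors ID2 and ID3 by 1.01 (adjusted p = 0.00218) and 1.46 (adjusted p = 1.76e-04). In cytolytic cells TCF4 was at 1.01, 1.63 and 1.35 (2.14, SE 0.23, adjusted p = 3.22e-05), where 7.76% of the 9692 genes tested were called higher and 17.9% in either direction, and it was detected in 16.9% of cells. Cytolytic cells carried markers of TCRγ/δ T-cells at 7.25 to 8.24 per 10000, against 1.65 to 1.84 in other T-cells, and the part of these in the TCF4 level was not tested.

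The basophil group held BCL11A and TCF4, with no score of PAX5 in any of its cells. BCL11A was detected in 20 and TCF4 in 17 of its 59 cells. BCL11A was higher than in T-cells by 3.65 (SE 0.40, adjusted p = 0.00198) and TCF4 by 1.59 (SE 0.29, adjusted p = 0.00908), where 7.58% of the 9982 genes tested were called higher and 27.1% in either direction. The TCF4 call was lost without library 1 (adjusted p = 0.0616) or library 2 (adjusted p = 0.0632). These cells also had thrombocyte markers at 4.13 to 12.0 per 10000, beside the CD3D and CD3E scores described above. Their median T-cell marker sum was 10 per cell, where the T-cell rule asks for 3. No basophil profile was left without the cells that met more than 1 lineage rule. The part of the thrombocyte or T-cell markers in the result was not tested. The median of all genes lay at -0.32, and 28.0% of the called genes were higher in the basophil group as scaled and 53.7% after centring.

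The 59 cycling cells outside the B-cell gate (18, 15 and 26) held little of the 5 factors. The B-cell rule came first and had taken out 7 cycling cells, with EBF1 at 44.2, 25.5 and 20.8 per 10000. Low values of PAX5, EBF1 and BCL11A in the remaining cells therefore follow in part from the rules. PAX5, EBF1 and BCL11A were at 0 in libraries 1 and 2, where 3 counts would give 0.728 and 0.822 per 10000, and at 0.308, 1.08 and 0.771 in library 3. TCF4 was at 1.46, 0 and 1.08. None of these 4 differed from T-cells past the threshold. MEF2C was at 0.243, 0.274 and 0.771, from a summed score of 1, 1 and 5 in 5 cells, and was called higher than in T-cells (1.72, SE 0.48, adjusted p = 0.0487), where 7.54% of the 10346 genes tested were called higher and 23.6% in either direction. That call was lost with the replicate block (adjusted p = 0.0983), which left 154 of 2439 genes called. It was also lost without library 1 (adjusted p = 0.138) or library 2 (adjusted p = 0.164). The cycling cells carried T-cell markers at 12.1 to 15.3 per 10000, cytolytic markers at 15.9 to 48.2 and plasmablast markers at 4.12 to 9.86, so they were of more than 1 lineage. The median of all genes lay at -0.34, and 32.0% of the called genes were higher in cycling cells as scaled and 69.8% after centring.

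Cells with the plasmablast genes JCHAIN, MZB1 and PDIA4 were too few for a test, with 2, 0 and 3 of them in the B-cell gate. Over all 14 such cells (4, 1 and 9), the summed scores of EBF1 and TCF4 were 0, that of PAX5 was 1 and that of BCL11A 6, all in library 3. MEF2C had summed scores of 3, 1 and 13 there. For EBF1 and TCF4, a score in 0 of 14 cells allows, by counting error alone, up to 21.4% of cells with a score. This is no limit on cells that express the genes.

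SOX5-low B-cells also differed in their share of ribosomal protein scores, and the 632 cells with the highest share (259, 160 and 213) were compared with the 632 with the lowest. EBF1 was lower in the cells with more ribosomal protein scores, at 45.3, 37.9 and 35.5 per 10000 against 57.1, 57.8 and 55.3 (-0.53, SE 0.14, adjusted p = 0.0111). MEF2C was at 13.8, 13.2 and 13.7 against 17.6, 19.3 and 17.8 (-0.42, SE 0.14, adjusted p = 0.0403). The share of cells with a score was not lower: EBF1 was detected in 93.2% against 91.6% and MEF2C in 85.4% against 81.6%. PAX5 was detected in 92.4% against 87.7%. The median total per cell was 2525.5 against 2257.5. Of the 9628 genes tested, 4.14% were called lower and 14.8% in either direction. The libraries of EBF1, MEF2C and PAX5 did not overlap, as in 11.4% of genes in that direction and 32.2% in either. PAX5 at 20.0 ± 1.88 against 23.3 ± 0.979 (adjusted p = 0.308), TCF4 at 5.28 ± 0.667 against 5.88 ± 0.585 (adjusted p = 0.564) and BCL11A at 19.4 ± 1.02 against 19.1 ± 3.05 (adjusted p = 0.894) did not pass. The EBF1 call was lost without library 2 (adjusted p = 0.0894) or library 3 (adjusted p = 0.0881) and the MEF2C call without any 1 of the 3. The median of all genes lay at 0.09, and 71.9% of the called genes were higher as scaled and 54.8% after centring. Among the receptor genes and targets, 9 of 23 were higher, the gating genes CD79B and LOC121108878 among them, 14 did not pass and none was lower, where 10.6% of all genes were called higher. CD74, the MHC class II invariant chain, was at 50.5 ± 6.23 against 12.4 ± 2.35 (2.03, SE 0.15, adjusted p = 7.91e-10), and MZB1, a chaperone of antibody-making cells, at 3.90 ± 0.328 against 1.03 ± 0.213 (1.84, SE 0.19, adjusted p = 2.18e-07). Of 32 other regulators, 3 were higher and 4 lower, among the latter IKZF1, which encodes Ikaros (-0.60, SE 0.15, adjusted p = 0.00703), and TCF12 (-0.59, SE 0.16, adjusted p = 0.0138).

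**Figure D5:**
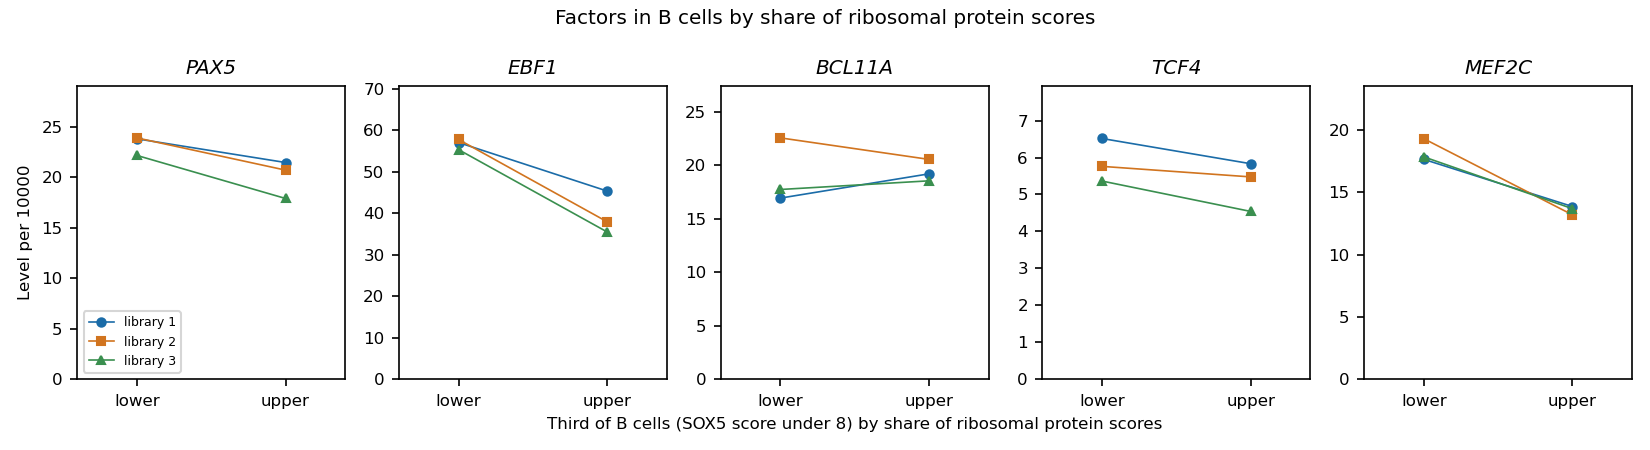
Level per 10000 of each factor in SOX5-low B-cells with the lowest and the highest share of ribosomal protein scores, with 1 line per library and axes from 0. EBF1, MEF2C, PAX5 and TCF4 are lower in the upper group in all 3 libraries, though only EBF1 and MEF2C passed the test. BCL11A moves in both directions.

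The genes whose pattern was most like that of each factor were named over the 33 profiles of 11 groups in 3 libraries, among 6971 genes, by Pearson's r of log2 of the level plus 0.1. These profiles share libraries and hens, so r is a description. PAX5 and EBF1 were the nearest to each other (r = 0.977), and LOC396098 (r = 0.964 with PAX5, 0.935 with EBF1) and DENND5B (r = 0.958 and 0.934) came next for both. BCL11A was followed most closely by RNF152 (r = 0.888), C20orf112 (r = 0.860) and ANKRD33B (r = 0.850). TCF4 had no neighbour as close, with LOC121108224 (r = 0.814), C20orf112 (r = 0.763) and ABCC13 (r = 0.713). MEF2C was nearest to PTPRJ (r = 0.887), which was also high in thrombocytes at 9.45 per 10000, to LOC101752071 (r = 0.854), the gene that overlaps it, and to FXYD6 (r = 0.797). Between members, r was lowest for TCF4 and MEF2C, at 0.472.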

How the data were processed

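Blood leukocytes of laying hens were measured by droplet-based single-cell RNA sequencing. The authors deposited 1 matrix of 15271 genes and 16936 cells, whose whole-number scores are taken here as UMI counts corrected for depth by SCTransform, since totals per cell lie only between 1577 and 3004. The file does not state this step, and scores of this kind are no raw counts, so no count model was used. The submitters' processing notes name Cell Ranger, Seurat and the GRCg7b build. The study filtered cells at 20% mitochondrial reads before this correction. By the deposited scores, another measure, 889 cells of libraries 1 to 3 lay over 20%. Doublets had been removed before deposit according to the methods. In the matrix, 282 cells met more than 1 lineage rule. Of the symbols, 15209 matched the RefSeq gene table.

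Cells were assigned in Python 3.11.15 with numpy 2.4.6 and pandas 2.3.3 by sums of marker scores. The cuts were 2 for B-cells, 3 for T-cells and cycling cells, 4 for monocytes, thrombocytes and TCRγ/δ T-cells, and 8 for SOX5, cytolytic cells, eosinophils, basophils, red blood cells and plasmablasts. Scores were summed per group and library where at least 10 cells were present, scaled to 10000, and log2 of the level plus 0.1 was fitted with limma 3.58.1 in R 4.3.3, with a trended variance and without a block. Sums of scores per library were 10500637, 6517674 and 11808169. Intervals of log2 differences come from the SE of the limma fit, which rests on the variation between libraries. Floors of 3 counts cover counting error only. The fit was tested on simulated data.

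Libraries pair across groups because both groups come from the same hen, and same-numbered profiles correlated by -0.129 to 0.449 in their deviations. The members and gene lists were chosen with earlier results of these data known. The genes named are the 5 members, those of the lists past the test, relatives of the members, and the 3 most like each member. Alternatives were the added value, the filter, each library left out, the replicate block, centring, the gates and the cells kept.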

Additional observations from a re-analysis of the deposited data

How the results depend on the processing

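Over all alternatives, counts of calls and values of the factors kept their direction and their side of the threshold in 464 recomputed results, while 17 counts moved by over 1.5 times, 11 values changed sign, 14 lost and 4 gained a call. For the factors in the comparisons added later, 56 stayed and 2 lost their call. The cause of the changes below was not tested unless it is named. With libraries left out in turn, the number of genes called was 2124 to 2954 for B-cells against T-cells, 54 to 313 for SOX5-high B-cells, 327 to 1133 for the ribosomal comparison, 699 to 1364 for TCRγ/δ T-cells and 725 to 1427 for cytolytic cells, where fewer samples entered each fit. Over the same settings, log2 differences were -0.95 to -0.80 for EBF1 and -0.53 to 0.17 for TCF4 in monocytes, -1.78 to -1.58 for BCL11A in SOX5-high B-cells, -1.34 to 0.89 for TCF4 and 1.43 to 1.91 for MEF2C in cycling cells, and 1.25 to 1.76 for TCF4 in basophils. In the ribosomal comparison they were -0.62 to -0.47 for EBF1, -0.035 to 0.12 for BCL11A and -0.46 to -0.36 for MEF2C. With the replicate block, TCF4 (-0.70) and MEF2C (-0.61) were called in SOX5-high B-cells, the count for TCRγ/δ T-cells was 2659 and that for cycling cells 154, and MEF2C in cycling cells (1.72) was not called. The block changed no other call of a factor. After centring, TCF4 in monocytes was 0.12 and BCL11A in the ribosomal comparison -0.072, and the counts were 1162 for cycling cells and 1737 for basophils. In cycling cells, with 1 added TCF4 was 0.0062 and MEF2C 0.43, and with 0.01 added PAX5, EBF1 and BCL11A were -0.60, -0.94 and -0.52 and MEF2C 2.86, while without cells over 20% mitochondrial EBF1 was -0.45. Without the filter on low values, 4285 genes were called for cycling cells and 4536 for basophils. In the ribosomal comparison, MEF2C was no longer called with 1 added (-0.40), without the filter (-0.42) and when scaled without ribosomal and mitochondrial genes (-0.35). With a B-cell gate at 4, that comparison had 759 calls and a BCL11A difference of -0.027. The comparison of plasmablast-like B-cells, and that of basophils without cells of more than 1 lineage rule, could not be run. The former lacked cells, and in the latter no basophil profile was left. In T-cells and monocytes the levels of PAX5 and EBF1 rest on few cells with a score.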

Other observations

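The 180 thrombocytes without a MEF2C score had a median thrombocyte marker sum of 8.5 and a median total of 1810, against 12 and 2003 in the 191 with MEF2C. PAX5 or EBF1 was detected in 0.556% and 1.05% of them, after the B-cell rule had taken out the gated cells.

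The 7 cycling cells inside the B-cell gate (2, 1 and 4) had EBF1 at 44.2, 25.5 and 20.8 per 10000 and PAX5 at 3.40, 17.0 and 4.95. They were too few for a profile in any library.

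Of the 39 SOX5-high cells that met no rule, TCF4 was at 6.48, 10.2 and 2.99 per 10000 and MEF2C at 6.22, 15.9 and 8.75 in libraries 1 to 3, from 16, 6 and 17 cells.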
